A study of Mus musculus with 6 samples.

Results

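Autophagy genes encode the machinery by which a cell wraps part of its own cytoplasm in a double membrane and delivers it to the lysosome for breakdown. A list of 40 such genes, chosen by symbol, was followed in mouse blood progenitors that did or did not express a vector for EVI1, the DNA-binding zinc finger protein that Mecom encodes. Of the 40, 38 had a probe set annotated to that gene alone, out of 18192 genes measured in all. Where a gene had several such probe sets, the one with the highest mean over the 6 arrays stood for it. The remaining pair, Optn and Bnip3l, was not analysed here.

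The cells were Lin- haematopoietic progenitors, marrow cells depleted of mature blood cells, from C57BL/6J mice that carry the Rosa26rtTA transactivator, which switches on a Tet promoter when doxycycline is present. They were transduced with pRRL.TET.EVI1.IRES.EGFP, grown in S3F11 medium (stem cell factor at 50 ng/ml, interleukin 3 at 20 ng/ml, Flt3 ligand at 50 ng/ml and interleukin 11 at 50 ng/ml), given doxycycline at 1 µg/ml and sorted by EGFP 20 hours later. EGFP-positive (3 arrays) and EGFP-negative (3 arrays) fractions were compared, so both groups share the strain, the transactivator and the cytokines. The source field calls the EGFP-negative cells untransduced, while the design text describes a negative or low gate on a transduced culture, so whether these cells met the vector is not settled by the labels. The description field also calls the EGFP-positive samples untransduced, against their title and source field, and the groups here follow the titles. With no arm that carries EGFP alone in this comparison, EVI1, EGFP and transduction cannot be told apart. Nothing in the labels places replicates in separate cultures or animals. The p-values therefore set each group difference against the scatter among these samples, which may be technical in origin.

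Each array gave log2 expression values, on which a difference of 1 is a doubling, and a gene was said to rise or fall where limma's adjusted p (Benjamini-Hochberg over all genes) was under 0.05. Array medians lay between 5.11 and 5.14. Of 3 Mecom probe sets the brightest read 8.26, 8.17 and 8.35 in the EGFP-negative arrays and 8.20, 7.89 and 7.82 in the EGFP-positive ones (difference -0.29, adjusted p = 0.13), and the other two lay below background on all 6 arrays. No source used here says whether any of them can detect the vector's EVI1, so they do not check the labels. Of 8 haematopoietic and progenitor markers 5 fell (Kit, Cd34, Flt3, Myb and Csf1r) and 0 rose, and the log2 of their summed level was 14.35 to 14.38 in the EGFP-negative arrays and 13.85 to 13.87 in the EGFP-positive ones. Ptprc (the leukocyte surface protein CD45) read 10.74 and 10.84 on average in the EGFP-negative and EGFP-positive arrays, Gata2 12.89 and 12.73, Kit 7.58 and 6.60, and Cd34 10.48 and 7.74. All 10 neutrophil markers measured and all 7 mast cell and basophil markers fell. The log2 of their summed level went from 15.78 to 15.87 in EGFP-negative arrays to between 14.86 and 14.90 in the EGFP-positive ones for neutrophil markers, and from 14.00 to 14.04 to between 11.94 and 12.05 for mast cell markers. Of 9 erythroid markers 7 rose and 1 fell (summed level 13.04 to 13.10 against 13.55 to 13.61), and of 6 megakaryocyte markers 4 rose (10.68 to 10.79 against 11.85 to 12.01). Monocyte and macrophage markers rose in 3 and fell in 6 of 9 cases (12.74 to 12.77 against 12.63 to 12.66), lymphoid markers rose in 1 and fell in 3 of 8 (10.23 to 10.41 against 8.49 to 8.67), with Ebf1, Cd3g and Rag1 at background, and stromal and endothelial markers rose in 3 and fell in 2 of 7 (9.97 to 10.28 against 9.43 to 9.497), with Col3a1 and Cxcl12 at background. Background here means both group means below 3.61, the highest value of any bacterial control probe set. The excess of 3' over 5' signal, a sign of RNA quality or amplification, was 0.80 ± 0.05 (SD, n = 3) for Actb in the EGFP-negative arrays and 1.00 ± 0.03 in the EGFP-positive ones, and 0.82 ± 0.02 and 1.06 ± 0.04 for Gapdh. These cell markers and the 3' excess moved with the groups beside every autophagy result below, and their part in it was not tested. In a sorted bulk fraction, fewer cells of a type and less RNA per cell cannot be told apart.

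Autophagy begins when the ULK1 kinase complex becomes active, which nutrient-sensing mTORC1 prevents and the energy sensor AMPK promotes. A lipid kinase complex built on VPS34 then marks the membrane, and 2 linked conjugation reactions attach small ubiquitin-like ATG8 proteins (the LC3 and GABARAP families) to it. Receptors such as p62 bind cargo on one side and ATG8 proteins on the other, and the closed vesicle fuses with a lysosome. In blood, autophagy is known for the removal of mitochondria from maturing red cells and for the upkeep of stem cells.

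In the EGFP-positive fraction 13 of the 38 measured autophagy genes rose and 1 fell. Over all genes tested, 16.0% rose and 17.2% fell, and 34.2% of the members rose. Counted in either direction, 36.8% of the members passed, near the 33.2% of all genes. All 38 members were brighter than the median gene, and among genes that bright 48.8% passed, 23.1% upward and 25.7% downward. The median difference of the 38 was 0.23, against 0.02 over all genes and -0.03 over the brighter genes. The changes were small. The median size of a difference, whatever its direction, was 0.29 in the members and 0.35 in the brighter genes, and of the 38 members 1, Ulk1, changed at least 2-fold, while 5.95% of all genes rose and 6.24% fell by that much. The count of 13 was 7 without EGFP-negative replicate 1, 8 without EGFP-negative replicate 2 and 20 when only genes brighter than the median gene were tested.

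The genes that rose came from each of the steps from initiation to cargo receptors: Ulk1, Atg13 and Atg101 (initiation), Atg14 (nucleation), Atg2a and Wipi1 (membrane growth), Atg16l2, Atg4a and Atg4d (conjugation), Gabarapl1 and Gabarap (ATG8 proteins), and Sqstm1 and Tbk1 (receptors and their kinase). Epg5, which encodes a tether for fusion with the lysosome, fell. On all 14 of these genes the 3 arrays of one group lay wholly above those of the other. The calls came from the same values, so this is no separate support for them. Among all 38, the EGFP-positive arrays lay wholly above in 24 and wholly below in 3, where 23.8% and 24.4% of all genes did so. The 38 are brighter than the median gene, and the shares among genes that bright were not counted.

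**Figure D1:**
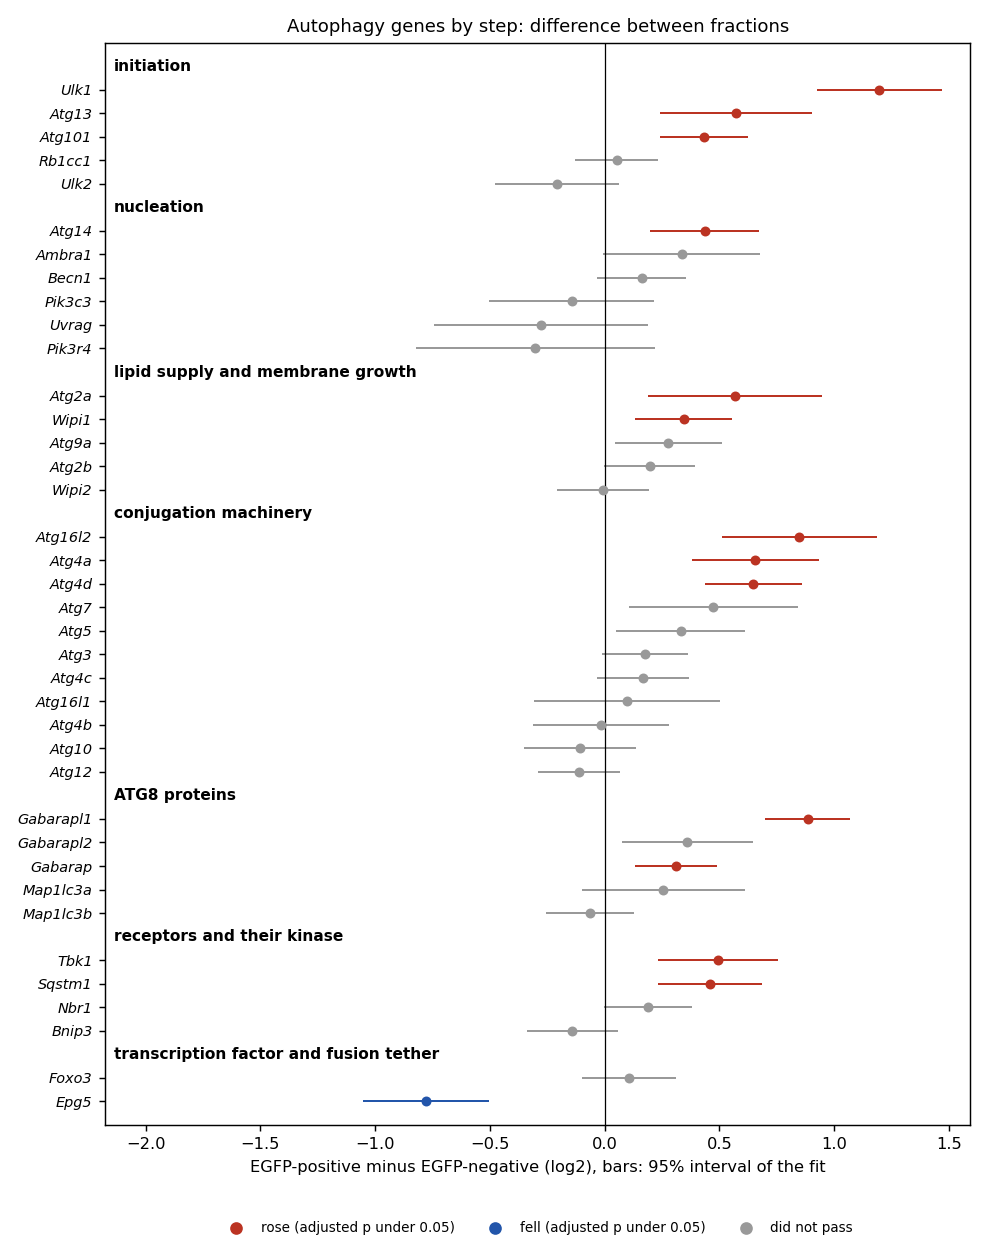
Difference between EGFP-positive and EGFP-negative arrays (log2, horizontal axis) for each of the 38 measured autophagy genes, grouped by step, with 95% intervals of the limma fit. Red points rose, blue fell and grey did not pass an adjusted p of 0.05; 13 points are red, and Epg5 is the 1 blue point.

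The promoters shown are those of the 3 members with the largest rises, from initiation, the ATG8 proteins and conjugation. Each is the 150 bases just before a RefSeq transcript start of GRCm38.p6, 5′ to 3′ on the gene's own strand, with capitals marking GC boxes (GGGCGG or its reverse complement CCGCCC, a site known to bind SP1-type factors). The Ulk1 stretch lies at chr5:110810082-110810231 on the minus strand, that of Gabarapl1 at chr6:129533042-129533191 on the plus strand and that of Atg16l2 at chr7:101302089-101302238 on the minus strand.
Ulk1: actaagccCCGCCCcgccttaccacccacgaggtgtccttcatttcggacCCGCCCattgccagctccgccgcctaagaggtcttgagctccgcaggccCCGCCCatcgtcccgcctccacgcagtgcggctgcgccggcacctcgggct
Gabarapl1: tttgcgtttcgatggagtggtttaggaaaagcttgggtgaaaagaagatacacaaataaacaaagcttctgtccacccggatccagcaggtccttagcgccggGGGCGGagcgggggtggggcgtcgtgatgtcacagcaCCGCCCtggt
Atg16l2: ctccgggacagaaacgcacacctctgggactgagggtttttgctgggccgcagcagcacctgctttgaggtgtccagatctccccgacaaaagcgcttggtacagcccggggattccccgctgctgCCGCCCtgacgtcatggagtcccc
These stretches were 70.0%, 56.0% and 63.3% G and C, and held 3, 2 and 1 GC boxes.

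Initiation genes were the most changed step by median (0.43, 5 genes, 3 rises and 0 falls). Counts by step, here and below, are of few genes. They were not tested against the 23.1% of brighter genes that rose. Ulk1, the kinase that starts autophagy, read 7.31, 7.02 and 6.97 in the EGFP-negative arrays and 8.27, 8.26 and 8.35 in the EGFP-positive ones. The groups stood 0.96 apart at their nearest arrays, and the difference of 1.196 (SE 0.11, 2.29-fold, adjusted p = 0.00051) was the largest of all members. Atg101, a subunit that stabilises the complex, read 9.19, 9.15 and 9.13 against 9.53, 9.66 and 9.59, a rise of 0.43 (SE 0.08, adjusted p = 0.0076). Both calls held under each of the 16 alternatives tried. Atg13, which encodes another subunit of the ULK1 complex, read 7.15, 7.32 and 7.06 against 7.87, 7.51 and 7.88. Its rise of 0.57 (SE 0.14, adjusted p = 0.021) was not past the threshold without EGFP-negative replicate 1 (adjusted p = 0.069), EGFP-negative replicate 3 (0.073), EGFP-positive replicate 1 (0.060) or EGFP-positive replicate 3 (0.058), nor by its most variable probe set (0.093). With replicate number as a block in the fit, Atg13 did not pass either (0.0675).

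The other initiation genes did not pass. The scaffold gene Rb1cc1 (FIP200) lay between 9.61 and 9.70 in the EGFP-negative arrays and between 9.70 and 9.73 in the EGFP-positive ones, a difference of 0.05 with a 95% interval of -0.13 to 0.23. Ulk2, the close relative of Ulk1, read 7.17, 7.26 and 7.48 against 7.10, 7.001 and 7.19, a difference of -0.21 (95% interval -0.48 to 0.06) by its brightest probe set. Its 4 probe sets were not alike. One of the dimmer ones fell by 1.24 (5.96 ± 0.10 to 4.71 ± 0.12, SD, n = 3, adjusted p = 0.00059 over probe sets), and the mean of all 4 fell as well (adjusted p = 0.020). For Ulk1 both probe sets rose, the dimmer by 0.51 (adjusted p = 0.038 over probe sets).

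**Figure D2:**
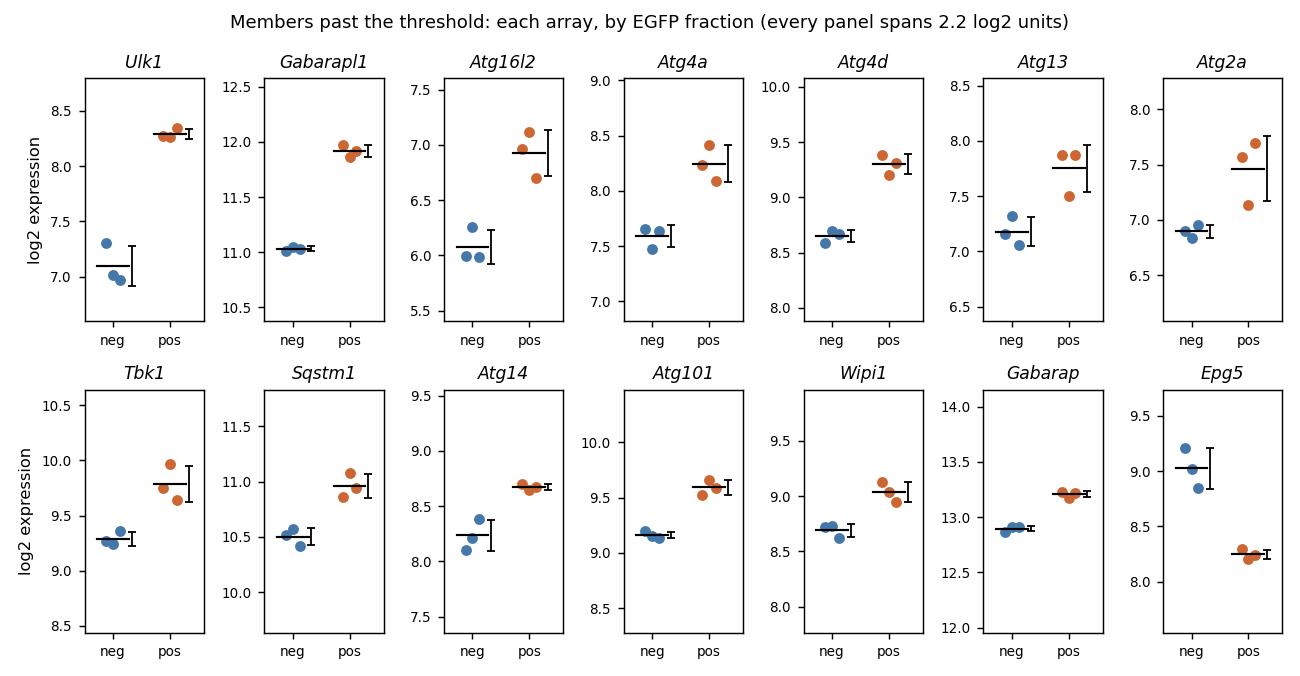
Log2 expression on each of the 6 arrays for the 14 members past the threshold, EGFP-negative in blue and EGFP-positive in orange, ordered by difference; horizontal lines are group means and bars are ± 1 SD (n = 3). Every panel has the same height in log2 units, and in none do the 2 groups overlap.

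Nucleation genes, which encode the VPS34 lipid kinase complexes, had a median difference of 0.01, and of 6 genes 1 rose. That gene was Atg14, whose protein directs the complex to autophagy, with 8.10, 8.22 and 8.39 in the EGFP-negative arrays and 8.70, 8.64 and 8.67 in the EGFP-positive ones. The 3 EGFP-positive values were close together and above all EGFP-negative ones. Its difference of 0.44 (SE 0.10, adjusted p = 0.017) was not past the threshold without EGFP-negative replicate 1 (adjusted p = 0.059) or EGFP-negative replicate 2 (0.062). Nor was it with the replicate block (0.0502). Uvrag, whose protein takes the place of ATG14 in the complex that serves endosomes, read 7.74, 7.84 and 7.73 against 7.62, 7.80 and 7.06. Its difference was -0.28 (95% interval -0.74 to 0.19). Pik3c3, the catalytic subunit VPS34 itself, read 7.54, 7.38 and 7.58 against 7.44, 7.57 and 7.07, and Pik3r4, its regulatory partner VPS15, 7.02, 6.78 and 7.16 against 6.78, 7.02 and 6.25. In Uvrag, Pik3c3 and Pik3r4 alike EGFP-positive replicate 3 was the lowest of the 6 arrays, which was so in 5 of the 38 members, with Wipi2 and Map1lc3b as the other two. The scaffold gene Becn1 (0.16, 95% interval -0.03 to 0.35) and its activator Ambra1 (0.34, -0.0084 to 0.68) did not pass.

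Among genes for lipid supply and membrane growth, 2 of 5 rose, with a median of 0.28, and both calls depended on single arrays. Atg2a, one of a pair of lipid transfer proteins, read 6.90, 6.84 and 6.95 in the EGFP-negative arrays and 7.57, 7.13 and 7.70 in the EGFP-positive ones. EGFP-positive replicate 2 lay nearest to the EGFP-negative values. The rise was 0.57 (SE 0.16, adjusted p = 0.034), the called member nearest to the threshold. It was not past it without EGFP-negative replicate 1 (0.093), 2 (0.10) or 3 (0.082), or EGFP-positive replicate 1 (0.092) or 3 (0.078). Wipi1, which binds the lipid made by VPS34, read 8.72, 8.73 and 8.62 against 9.12, 9.04 and 8.94, a rise of 0.34 (SE 0.09, adjusted p = 0.025). It did not pass without EGFP-negative replicate 1 (0.071), 2 (0.069) or 3 (0.082), EGFP-positive replicate 1 (0.066) or 2 (0.058), or with its 6 probe sets averaged (0.076) or its most variable one taken (0.15). Nor did it pass with the replicate block (0.060). Atg2b (0.20, 95% interval -0.0039 to 0.40) and Atg9a (0.28, 0.04 to 0.51), the membrane protein of the vesicles that seed autophagosomes, did not pass, although their EGFP-positive arrays all lay above their EGFP-negative ones. Wipi2 read 8.82, 8.80 and 8.71 against 8.82, 8.79 and 8.69 and differed by -0.01 (95% interval -0.21 to 0.19). A dimmer Wipi2 probe set fell by 0.63 (adjusted p = 0.028 over probe sets).

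In the conjugation machinery 3 of 11 genes rose and 0 fell, with a median of 0.18, and the 3 held under all 16 alternatives. Among all genes brighter than the median gene, 23.1% rose and 25.7% fell. Atg16l2, a relative of the ATG16L1 scaffold that places the conjugation enzyme on the membrane, read 6.00, 6.25 and 5.98 in the EGFP-negative arrays and 6.97, 7.11 and 6.70 in the EGFP-positive ones, a rise of 0.85 (SE 0.14, 1.80-fold, adjusted p = 0.0048). Atg16l1 read 6.69, 6.89 and 6.86 against 6.72, 7.27 and 6.74, and its difference of 0.10 had an interval of -0.31 to 0.50. Its groups overlapped, and it was lower in EGFP-positive cells (-0.08) when EGFP-positive replicate 2 was left out.

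The ATG4 proteases trim ATG8 proteins before conjugation and release them afterwards. Of the 4 genes, Atg4a rose by 0.66 (7.65, 7.48 and 7.64 against 8.23, 8.42 and 8.09, SE 0.11, adjusted p = 0.0061) and Atg4d by 0.65 (8.59, 8.70 and 8.67 against 9.38, 9.21 and 9.31, SE 0.09, adjusted p = 0.0021). In both, the lowest EGFP-positive array exceeded the highest EGFP-negative one, by 0.43 and 0.51. Atg4b, known as the most active of the 4 on LC3, read 8.19, 8.19 and 8.22 against 8.39, 7.96 and 8.22, a difference of -0.01 (95% interval -0.31 to 0.28). Atg4c differed by 0.17 (-0.03 to 0.37) and did not pass.

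The enzymes of the conjugation reactions had intermediate values. Atg7, the E1-like enzyme that activates both ATG12 and ATG8 proteins, read 8.35, 8.27 and 8.21 in the EGFP-negative arrays and 9.07, 8.55 and 8.63 in the EGFP-positive ones. With a difference of 0.47 (95% interval 0.11 to 0.84, adjusted p = 0.057) it was the member nearest to the threshold from outside, and it passed without EGFP-positive replicate 2 (0.043) and under 7 further alternatives. Atg5, which is joined to ATG12, differed by 0.33 (0.05 to 0.61, adjusted p = 0.074) and passed without EGFP-positive replicate 1 (0.043) and under 4 further alternatives. One further probe set of each rose, by 0.76 for Atg7 (adjusted p = 0.040 over probe sets) and by 0.42 for Atg5 (0.023). Atg3, the E2-like enzyme for ATG8 proteins, differed by 0.18 (-0.01 to 0.36), and Atg10, the E2-like enzyme for ATG12, by -0.11 (-0.35 to 0.14). Atg12 lay between 11.67 and 11.73 in the EGFP-negative arrays and between 11.55 and 11.61 in the EGFP-positive ones. These ranges did not overlap, but the difference of -0.11 did not pass (adjusted p = 0.30), and a dimmer Atg12 probe set fell by 0.69 (adjusted p = 0.029 over probe sets).

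Of the 5 ATG8 genes 2 rose by their brightest probe set, both of the GABARAP branch, and the step median was 0.31. Gabarapl1 read 11.01, 11.05 and 11.03 in the EGFP-negative arrays and 11.97, 11.86 and 11.92 in the EGFP-positive ones. The SD was 0.02 in the EGFP-negative and 0.06 in the EGFP-positive group, and the difference was 0.89 (SE 0.08, 1.85-fold, adjusted p = 0.00037). Its second probe set gave 1.01 (adjusted p = 0.00064 over probe sets). Gabarap read 12.87, 12.91 and 12.91 against 13.23, 13.18 and 13.22, a rise of 0.31 (SE 0.07, adjusted p = 0.020). That call was lost without EGFP-negative replicate 1 (0.077), 2 (0.066) or 3 (0.054) or EGFP-positive replicate 1 (0.0502). It was also lost with the replicate block (0.074) and when the most variable probe set stood for each gene (0.061). Gabarapl2 (GATE-16) read 9.82, 10.05 and 9.77 against 10.26, 10.10 and 10.37 and differed by 0.36 (95% interval 0.07 to 0.65, adjusted p = 0.061).

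Neither LC3 gene passed by its brightest probe set. Map1lc3a read 8.86, 8.36 and 8.80 in the EGFP-negative arrays and 8.96, 8.90 and 8.93 in the EGFP-positive ones, a difference of 0.26 (95% interval -0.10 to 0.61). Its other probe set differed by 0.49 and did not pass (adjusted p = 0.054 over probe sets). With both averaged Map1lc3a rose by 0.37 (adjusted p = 0.038). Map1lc3b, whose protein LC3B is the common marker of autophagosomes, read 11.05, 11.10 and 11.11 against 11.00, 11.09 and 10.96, a difference of -0.06 (-0.26 to 0.13). Its probe sets disagreed. The other 3 gave 0.21, 0.31 and 0.80, of which the last rose (adjusted p = 0.018 over probe sets), and the mean of all 4 rose by 0.31 (adjusted p = 0.029). For Map1lc3b the direction therefore depends on the probe set.

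Among cargo receptors and their kinase, 2 of 4 measured genes rose. Sqstm1, which encodes the ubiquitin-binding receptor p62, read 10.52, 10.57 and 10.42 in the EGFP-negative arrays and 10.86, 11.08 and 10.94 in the EGFP-positive ones. Its rise of 0.46 (SE 0.09, 1.38-fold, adjusted p = 0.011) held under all 16 alternatives, and its second probe set rose by 0.55. Tbk1, the kinase that phosphorylates p62 and optineurin, read 9.26, 9.24 and 9.36 against 9.75, 9.97 and 9.64, a rise of 0.49 (SE 0.11, adjusted p = 0.015). It did not pass without EGFP-negative replicate 1 (0.057) or 2 (0.059), or with the replicate block (0.052). Nbr1, a receptor related to p62, read 11.66, 11.65 and 11.58 against 11.88, 11.76 and 11.81 (0.19, 95% interval -0.0038 to 0.38). Bnip3, a mitochondrial receptor induced by low oxygen, read 12.26, 12.14 and 12.24 against 12.12, 12.004 and 12.10 (-0.14, -0.34 to 0.06). Neither passed, although in both the groups did not overlap.

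Epg5 was the 1 member that fell. It read 9.21, 9.02 and 8.84 in the EGFP-negative arrays and 8.29, 8.21 and 8.24 in the EGFP-positive ones, so the lowest EGFP-negative array stood 0.55 above the highest EGFP-positive one. The difference was -0.78 (SE 0.11, 1.72-fold lower, adjusted p = 0.0029) and held under all 16 alternatives. Epg5 has 1 probe set on the array. Foxo3, a transcription factor that acts on autophagy genes in blood stem cells, read 12.07, 11.99 and 12.11 against 12.25, 12.09 and 12.15, a difference of 0.11 (95% interval -0.10 to 0.31) that did not pass.

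The 24 members that did not pass divided into 14 with a difference above 0 and 10 below it. By the probe set that stands for each gene, their 95% intervals all lay within a doubling either way, with limits between -0.82 and 0.84. Larger changes by that probe set were outside the intervals. The intervals, which are not adjusted, lay above 0 for Atg7, Atg5, Gabarapl2 and Atg9a, whose adjusted p did not pass. In the others, small changes could not be told from no change with 3 arrays per group. The intervals do not cover the other probe sets of a gene, such as the dimmer Ulk2 one that fell by 1.24. Over all 87 probe sets of the members, 22 rose and 4 fell, where 11.6% and 12.6% of all probe sets did. All probe sets include those with no gene in the annotation, and shares at like brightness were not counted. The 4 that fell were those of Epg5, Ulk2, Wipi2 and Atg12 already given. Of the 9 called members with more than 1 probe set, a second probe set passed in 6 (Ulk1, Atg13, Atg4a, Gabarapl1, Sqstm1 and Tbk1), and in 0 members did probe sets pass in opposite directions.

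**Figure D3:**
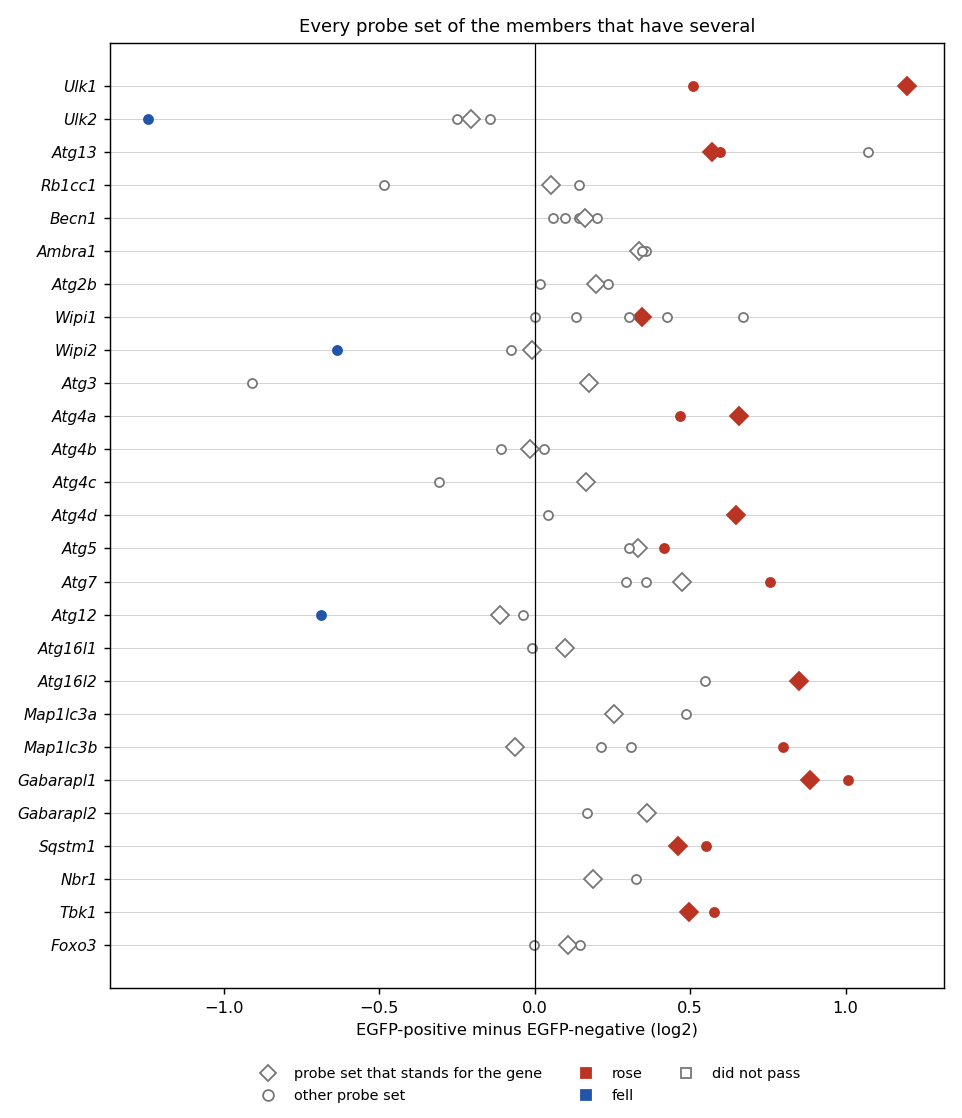
Difference between EGFP-positive and EGFP-negative arrays (log2) for every probe set of the 27 members that have several; diamonds mark the probe set that stands for the gene, circles the others, and filled symbols passed an adjusted p of 0.05 over all probe sets. Ulk2, Wipi2 and Atg12 each have a dimmer probe set that fell, and Map1lc3b, Atg5 and Atg7 one that rose.

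The promoters of the members were searched for 4 short motifs on both strands, in windows of 300 bases (250 before to 50 after a RefSeq transcript start, GRCm38.p6). Windows were found for 31 of the 38 measured members, 34 windows in all. The E-box CACGTG, bound by the TFEB, TFE3 and MYC families, was in 17.6% of them and in 7.15% of all 32851 windows. By gene it was in 2 of 13 members that rose and 4 of 18 that did not pass. Every E-box match in the members is shown here in a 30-base stretch, with the motif in capitals. Those 6 genes span the nucleation, conjugation and receptor steps. Positions count from 1 at the start and from -1 just before it: -1 to 5 in Atg14 (chr14:47568418-47568447, minus strand), 6 to 11 in Tbk1 (chr10:121586772-121586801, minus), -132 to -127 in Atg7 (chr6:114670952-114670981, plus), -14 to -9 in Atg5 (chr10:44268313-44268342, plus), -94 to -89 and -71 to -66 in Atg3 (chr16:45158723-45158752 and chr16:45158746-45158775, plus) and -108 to -103 in Bnip3 (chr7:138909597-138909626, minus).
Atg14: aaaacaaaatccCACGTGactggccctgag
Tbk1: cccgcactcggtCACGTGctccgtggcccg
Atg7: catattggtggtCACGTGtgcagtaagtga
Atg5: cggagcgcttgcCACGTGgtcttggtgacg
Atg3, first: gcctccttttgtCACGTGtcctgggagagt
Atg3, second: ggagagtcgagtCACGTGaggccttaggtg
Bnip3: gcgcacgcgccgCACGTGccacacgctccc
Of these genes Atg14 and Tbk1 rose, and Atg7, Atg5, Atg3 and Bnip3 did not pass. The GATA motif AGATAAG was in 1 member window, that of Atg4d, which rose (positions -107 to -101, chr9:21265166-21265195, plus strand), and in 3.04% of all windows.
Atg4d: cccattggtctgAGATAAGggcccccaggg
The forkhead motif TGTTTAC, bound by FOXO factors, was in 0 member windows and in 3.65% of all. GC boxes were in 64.7% of member windows and 35.7% of all, and in 9 of 13 members that rose and 13 of 18 that did not pass. Matches to a motif that overlapped each other were counted separately, and a match is a string of letters, not a measured site.

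Other genes of the pathway were taken from a separate list of 59, of which 58 were measured, and 20 rose and 6 fell (median 0.27). These are 34.5% and 10.3% of the 58, beside 16.0% and 17.2% of all genes. Among genes brighter than the median gene, 23.1% rose and 25.7% fell. The 20 rises became 13 without EGFP-negative replicate 1 and 13 without EGFP-negative replicate 2. Of 16 genes for the control of autophagy by energy and nutrients 4 rose and 1 fell. Counts by class, here and below, are small and were not tested against the shares of brighter genes. Among subunits of AMPK, catalytic Prkaa2 rose (5.48 ± 0.38 to 7.09 ± 0.26, SD, n = 3, a difference of 1.61 with adjusted p = 0.0026). The brighter catalytic gene Prkaa1 did not pass (7.16 ± 0.04 to 7.31 ± 0.11, 0.15, adjusted p = 0.26). Regulatory Prkab1 (9.33 ± 0.04 to 9.96 ± 0.07, 0.64, adjusted p = 0.0016) and Prkag1 (0.31, adjusted p = 0.034) rose. The mTORC1 inhibitor Ddit4 rose as well (12.59 ± 0.07 to 13.28 ± 0.02, 0.69, adjusted p = 0.0011). Prkag1 did not pass without EGFP-negative replicate 1 (0.091), 2 (0.12) or 3 (0.077) or EGFP-positive replicate 1 (0.076) or 2 (0.082), nor with its probe sets averaged (0.055) or the most variable one taken (0.078). The fall was that of Rptor, the substrate-binding subunit of mTORC1 (-0.52, adjusted p = 0.014). Rptor did not pass without EGFP-negative replicate 2 (0.058) or 3 (0.0501), or with its probe sets averaged (0.75), and by its most variable probe set it was higher in EGFP-positive cells (0.31, adjusted p = 0.63). Mtor itself differed by -0.26 and did not pass.

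Partners of the VPS34 complexes showed 2 falls and 0 rises among 4 genes. Bcl2, which can hold beclin 1 inactive as well as block apoptosis, fell by 2.42 (10.39 ± 0.05 to 7.97 ± 0.10, adjusted p = 2.4e-05), and Nrbf2, a subunit of the ATG14 complex, fell by 0.61 (adjusted p = 0.018), a call lost without EGFP-negative replicate 2 (0.068) or 3 (0.060). Of 6 genes for membrane source and growth 3 rose and 1 fell, and 1 rose without EGFP-negative replicate 1. The lipid scramblase gene Tmem41b rose by 0.88 (9.93 ± 0.04 to 10.81 ± 0.15, adjusted p = 0.0012). Vmp1, its partner in the endoplasmic reticulum, rose by 0.38 (adjusted p = 0.015) and Wdr45, a relative of the WIPI genes, by 0.63 (adjusted p = 0.034). Vmp1 did not pass without EGFP-negative replicate 1 (0.059) or with its probe sets averaged (0.62), nor did Wdr45 without EGFP-negative replicate 1 (0.074), 2 (0.099) or 3 (0.10). Atg9b, the relative of Atg9a, fell by 0.71 (adjusted p = 0.010).

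Of 11 other receptor genes 6 rose and 0 fell, and 3 rose without EGFP-negative replicate 1. Ccpg1, a receptor for the endoplasmic reticulum, rose most (9.97 ± 0.09 to 11.35 ± 0.12, 1.38, 2.61-fold, adjusted p = 0.00020), and Retreg1 (FAM134B), a receptor for the same organelle, rose by 0.52 (adjusted p = 0.0041). Wdfy3 (ALFY), which links aggregates to the machinery, rose by 0.63 (adjusted p = 0.0028) but did not pass with its probe sets averaged (0.078) or the most variable one taken (0.34). The other rises, of Tex264 (0.48), Pink1 (0.39) and Ncoa4 (0.26), did not pass without EGFP-negative replicate 1 (adjusted p 0.055, 0.062 and 0.14). Tex264 did not pass without EGFP-negative replicate 2 (0.058) or 3 (0.052) either, nor Pink1 without EGFP-negative replicate 3 (0.063) or EGFP-positive replicate 1 (0.056) or 2 (0.064), nor Ncoa4 without any other single array (0.057 to 0.12). Of 15 genes for fusion with the lysosome 4 rose and 1 fell, but 1 rose without EGFP-negative replicate 2 and 2 rose without EGFP-negative replicate 3, while 2 fell without EGFP-positive replicate 3. The SNARE genes of this step went in different directions: Vamp8 rose by 0.83 (adjusted p = 0.00067) and Stx17 by 0.86 (adjusted p = 0.022), while Snap29 fell by 0.55 (adjusted p = 0.0040), though not past the threshold by its most variable probe set (0.057). Vps41, a subunit of the HOPS tether, rose by 0.41 (adjusted p = 0.012). Stx17 was not past the threshold without EGFP-negative replicate 2 (0.056) or 3 (0.055) or EGFP-positive replicate 2 (0.062) or 3 (0.061), nor Vps41 without EGFP-negative replicate 2 (0.053). The fourth rise, of Lamp1, a lysosomal membrane protein (0.29, adjusted p = 0.029), was lost without each single array (0.065 to 0.0996) other than EGFP-positive replicate 3.

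Of 6 transcription factor genes that act on autophagy and lysosome genes, 3 rose and 1 fell. Foxo1 went from 6.89 ± 0.09 to 8.06 ± 0.14 (1.17, 2.24-fold, adjusted p = 0.00041) and Foxo4 from 10.70 ± 0.03 to 11.25 ± 0.03 (0.55, adjusted p = 0.0021), beside the difference of 0.11 of Foxo3. By its most variable probe set Foxo4 did not pass (0.37, adjusted p = 0.31). Within the MiT family, Tfe3 rose from 11.70 ± 0.04 to 12.40 ± 0.01 (0.70, adjusted p = 0.00080), Mitf fell from 11.07 ± 0.09 to 10.28 ± 0.09 (-0.79, adjusted p = 0.0013) and Tfeb differed by 0.29 and did not pass. Mast cells are known to express Mitf, and all 7 mast cell and basophil markers fell as given above. Whether the fall of Mitf goes with theirs was not tested. The differences between relatives in these families were not tested.

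**Figure D4:**
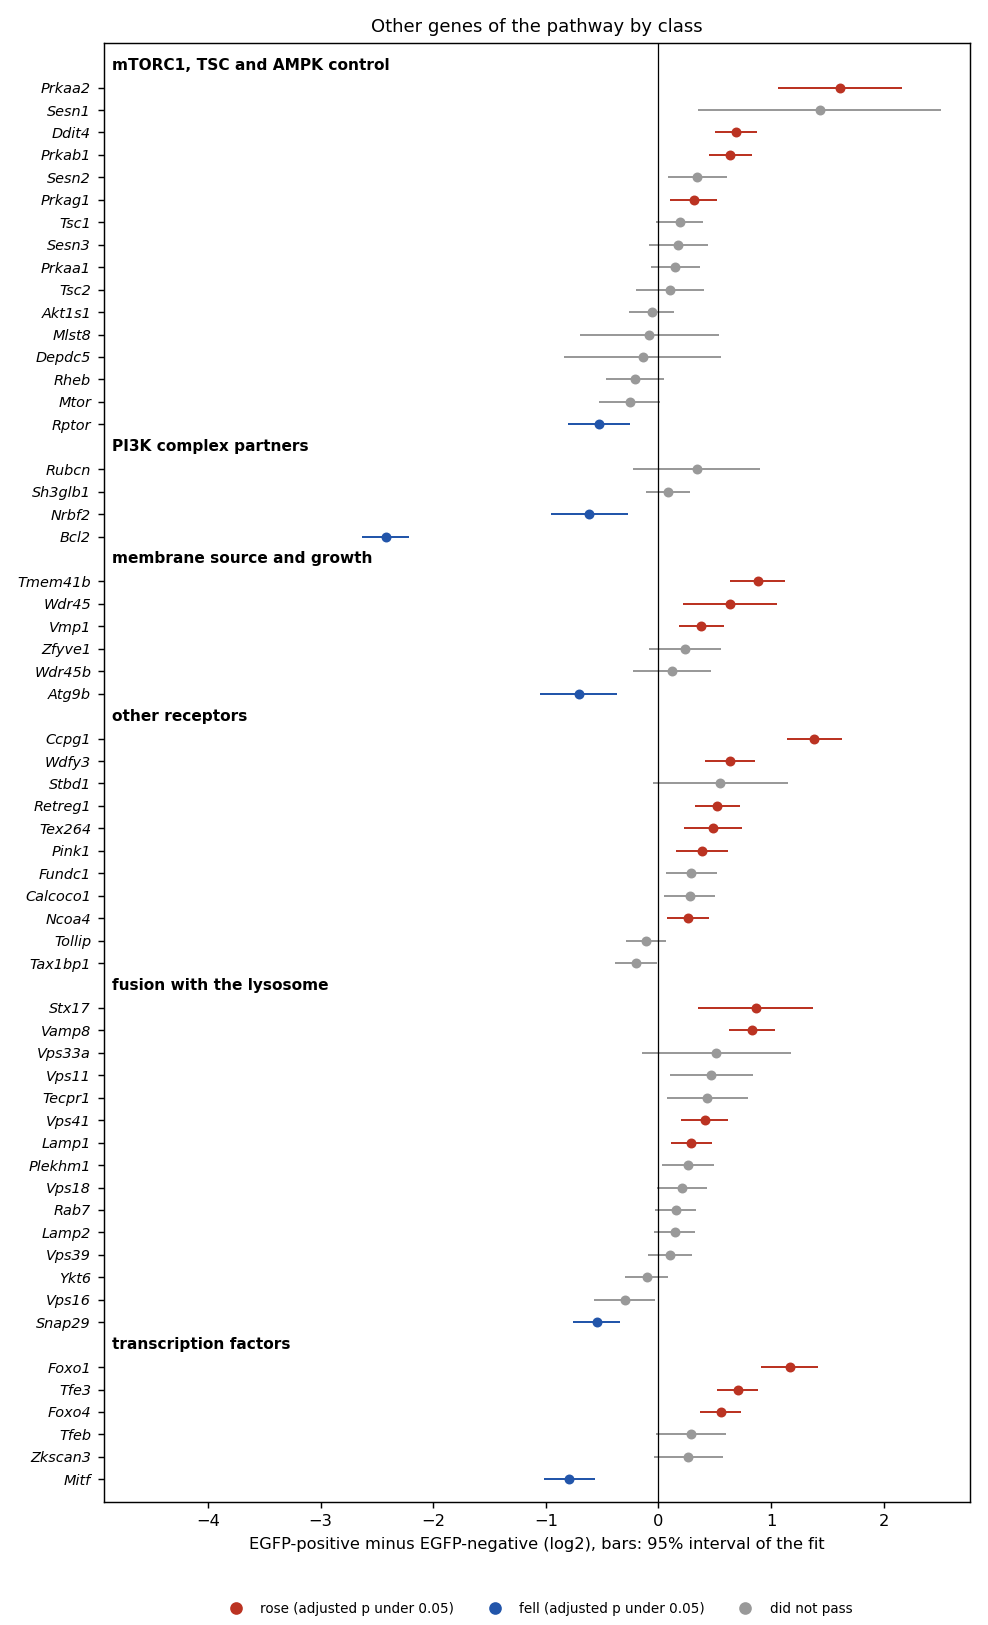
Difference between EGFP-positive and EGFP-negative arrays (log2) for the 58 other pathway genes by class, with 95% intervals of the limma fit, coloured as red for rises, blue for falls and grey for genes that did not pass. Bcl2 lies far to the left at -2.42, and 20 points are red against 6 blue.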

How the data were processed

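The deposited values are log2 expression on 6 Affymetrix arrays, 1 value per probe set, and the submitters' processing notes name RMA (background correction, quantile normalization, summary over probes) with no version. RNA was amplified by a kit that primes at the 3' end, per the labels' protocols. Quantile normalization removes any change in total RNA per cell, and arrays carry no read depth, so their number limits the precision.

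Of 45101 probe sets, 64 were controls, 34945 had 1 gene in GEO's platform annotation, 932 had several and 9160 had none; 34741 found their Entrez identifier in RefSeq (GRCm38.p6) and 0 symbols changed. One probe set stood for each of 18192 genes (the highest mean), with no filter on dim ones. Groups came from the sample titles. The 6 arrays entered 1 fit of lmFit and eBayes (limma 3.58.1, R 4.3.3) with no covariate, with Benjamini-Hochberg adjustment over all genes or, where stated, over 45037 probe sets, and 95% intervals from the same fit, not adjusted. The scripts were tested on simulated data.

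The members and the gene lists were chosen with earlier results of these data known, the motifs likewise. Every member is accounted for; array values are given for members past the threshold and for their relatives, and from the other list up to 3 rises and 3 falls per class with the smallest p; Prkag1, Tex264, Pink1, Ncoa4 and Lamp1 were named after their values were seen. Promoters are shown for the 3 largest rises, of which Gabarapl1 stands for the ATG8 family. Alternatives were a replicate block, other scalings, filters, variance options, weights for arrays, another rule for the probe set and leaving out each array.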

Additional observations from a re-analysis of the deposited data

How the results depend on the processing

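No called member changed direction under the 16 alternatives, and 8 of the 14 calls (Ulk1, Atg101, Atg4a, Atg4d, Atg16l2, Gabarapl1, Sqstm1 and Epg5) held under all of them; Atg13, Atg14, Atg2a, Wipi1, Gabarap and Tbk1 lost theirs under at least 1. Without 1 array at a time, 7 to 13 members rose, 1 fell, and the median difference was 0.19 to 0.27; nucleation had 0 to 1 calls, membrane growth 0 to 1, ATG8 proteins 1 to 2 and receptors 1 to 2, and 13 to 20 other pathway genes rose. The lowest count of rises, 7, came without EGFP-negative replicate 1, and 8 without EGFP-negative replicate 2. Same-numbered arrays did not deviate together (r of 0.01, -0.01 and 0.00 over genes). With 3 arrays per group, this does not settle whether they shared a culture, an animal or a sort. With the replicate block, 8 members rose, and calls numbered 0 in nucleation and 1 each in membrane growth, ATG8 proteins and receptors, with 13 rises among other pathway genes. There Prkag1, Wdr45, Vmp1, Ncoa4, Pink1, Stx17, Vps41 and Lamp1 lost their rises, and Nrbf2 its fall. With only the brighter genes tested, 20 members rose, with 4 calls in membrane growth and 6 in conjugation. With eBayes trend 3 fell, with 2 calls in nucleation, 7 in conjugation and 4 in receptors. With the mean of all probe sets 2 fell, the median was 0.27, and calls were 1 in membrane growth, 5 in conjugation and 4 in ATG8 proteins. With the most variable probe set 4 fell, the median was 0.32 and conjugation had 6 calls. The median was 0.24 with a further quantile normalization, 0.25 with arrays shifted to the same median and 0.25 with array weights. The cause of these shifts was not tested.

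Signs turned in members that did not pass. With the mean of all and the most variable probe set, differences were -0.10 and -0.49 for Rb1cc1, -0.37 and -0.91 for Atg3, -0.0701 and -0.31 for Atg4c, and 0.31 and 0.80 for Map1lc3b. Wipi2 was 0.0061 with a further quantile normalization and 0.017 with the same median, and Atg4b 0.0105 with the same median. Without 1 array at a time Wipi2 ran from -0.0401 to 0.0308, Atg4b from -0.11 to 0.10, Atg16l1 from -0.081 to 0.19 and Pik3c3 from -0.25 to 0.0037. Of the other pathway genes that passed, Rptor turned, to 0.31 with the most variable probe set.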
